A study of Mus musculus with 9 samples.

Results

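Retinal ganglion cells send the only axons that leave the eye, and 10 genes of their axon, cytoskeleton and cell surface were followed in whole retinas of a mouse line that carries CreERT2 at the Rbpms locus. The genes were given by symbol, as known ganglion cell genes. No measured value enters the rule, but the list was chosen with earlier results of these data known. It holds the neurofilament subunits Nefl, Nefm and Nefh, the microtubule genes Tubb3 and Stmn2, and the growth cone gene Gap43. It also holds the soluble neuronal proteins Sncg and Uchl1, the surface glycoprotein Thy1 and the vesicular glutamate transporter Slc17a6. All 10 were found among 25239 gene names, each in 1 row of every gene table, and all 10 were among the 15198 genes whose mean over the 9 libraries reached 1 TPM (transcript abundance per length, scaled to the same total in every library). In the knock-in allele, made by CRISPR/Cas9 in C57BL/6J zygotes, a P2A-CreERT2 cassette follows the last coding codon of Rbpms in frame, so that the Rbpms promoter, active in ganglion cells, drives a tamoxifen-dependent Cre. Wild-type (+/+), heterozygous (Cre/+) and homozygous (Cre/Cre) retinas were sequenced at P42 (postnatal day 42) with 3 libraries per genotype, each made from a pair of retinas on the C57BL/6J background, and no tamoxifen treatment of these animals was stated. RNA of whole retina was measured, so that fewer ganglion cells and less RNA per ganglion cell cannot be told apart in any value given here.

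Neurofilaments are heteropolymers that fill the axon and set its calibre; Nefl is the core subunit, and Nefm and Nefh carry long tails that are heavily phosphorylated in mature axons. Tubb3, a neuronal β-tubulin, and Stmn2, which binds tubulin dimers and regulates microtubule dynamics, belong to the microtubule part of the same axonal skeleton, whereas Gap43 lies under the membrane of growing and regenerating axons. Sncg (γ-synuclein), Thy1 and Slc17a6 (VGLUT2) are widely used to mark ganglion cells in the rodent retina, although Thy1, Tubb3, Uchl1 and the neurofilaments are also found in some other retinal neurons. Rbpms itself encodes an RNA-binding protein that is found in nearly all ganglion cells.

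The genes lie on 8 chromosomes of the mm10 build. Nefl (chr14:68083863-68089096, plus strand) and Nefm (chr14:68119545-68125004, minus strand) are neighbours, with 30448 bases between them. Sncg is on the same chromosome (chr14:34370274-34374669, minus strand). Nefh (chr11:4938756-4948064, minus strand) shares 544 bases with Ap1b1 on the opposite strand, which was expressed at 179 to 210 TPM, and the counting of these strand-specific libraries was not stated to use strand. The other genes are Stmn2 (chr3:8509527-8561604), Uchl1 (chr5:66676121-66687234), Slc17a6 (chr7:51621830-51671126), Tubb3 (chr8:123411553-123422015) and Thy1 (chr9:44043384-44048579), all on the plus strand, and Gap43 (chr16:42248561-42340651) on the minus strand. Of these, Nefm shares 1253 bases with A230070E04Rik, which lies on the opposite strand and was listed at 2.21 to 4.73 TPM.

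Promoter sequences were printed for Sncg and Tubb3, since these were the genes with an unadjusted p under 0.05 in both comparisons with +/+. RefSeq windows (GRCm38.p6) of 250 bases before the annotated start were found for 4 of the 10 genes, in 5 windows. In the following lines, capitals mark the GC box GGGCGG and the TATA-box core TATAA, on either strand, and the sequences run 5′ to 3′ along the strand of the gene, Sncg at chr14:34374670-34374919 (minus) and Tubb3 at chr8:123411303-123411552 (plus).
Sncg: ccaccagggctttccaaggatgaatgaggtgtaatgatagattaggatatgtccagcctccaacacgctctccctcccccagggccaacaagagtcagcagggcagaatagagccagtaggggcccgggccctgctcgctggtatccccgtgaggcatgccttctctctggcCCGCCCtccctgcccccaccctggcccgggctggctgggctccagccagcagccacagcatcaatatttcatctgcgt
Tubb3: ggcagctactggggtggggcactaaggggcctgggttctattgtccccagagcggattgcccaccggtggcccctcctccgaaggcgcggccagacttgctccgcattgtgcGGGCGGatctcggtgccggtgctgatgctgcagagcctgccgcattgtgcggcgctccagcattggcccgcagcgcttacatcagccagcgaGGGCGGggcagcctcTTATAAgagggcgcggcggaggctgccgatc
The Tubb3 window held GGGCGG at 138 and 46 bases before the start and TATAA at 31 and 30 bases before it on the minus and plus strands, which overlap. The Sncg window held GGGCGG on the minus strand at 78 bases before the start and no TATAA. Over all 32851 windows of this length, GGGCGG on either strand was present in 32.7% and TATAA in 22.8%. G and C made up 61.6% of the Sncg window and 68.0% of the Tubb3 window, against a median of 52.4%. The Uchl1 window held neither motif, nor the homeodomain core TAATTA, present in 4.84% of all windows on either strand, nor the E-box CACGTG, present in 6.02%. For Slc17a6, the window at chr7:51621580-51621829 held GGGCGG on the minus strand at 36 bases before its start. The Slc17a6 window at chr7:51624387-51624636 held TAATTA at 81 bases before its start.

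The protein made by Rbpms is known to bind RNA at CAC triplets that occur in pairs, and such pairs (CAC, then 1 to 12 bases of any kind, then CAC) were therefore searched on the transcribed strand after the coding sequence of the annotated transcript with the longest coding sequence (GENCODE vM21, GRCm38). The sites of Sncg and Nefh are shown with 5 bases on either side, the paired triplets in capitals, because these genes had the smallest p values in homozygous retinas.
Sncg: agtgcCACaagtcCACacacg
Nefh, first site: ctggcCACtgaacCACgccag
Nefh, second site: ctctcCACtgaagtcCACtttca
At least 1 pair was found in 9 of the 10 genes and in 75.3% of 13373 tested genes with such a sequence. The density was 3.69 pairs per kb in Sncg, 3.38 in Nefh and 9.80 in Uchl1, against a median of 1.94 over the 13373 genes. The Sncg value rests on 1 pair in 271 bases. Tubb3, Thy1 and Slc17a6 also lay above the median. Gap43 (1.70), Nefl (1.82) and Stmn2 (0.78) lay below it, and Nefm had none. Over whole transcripts, only Tubb3 (3.75) and Uchl1 (2.55) of the 10 genes exceeded the median of 2.32. Sncg stood at 1.17 and Nefh at 2.25 in that count. These matches describe letters in the annotation, and binding was not measured here.

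Each library held 25239 gene names, and 4.05 to 4.65 gigabases of aligned sequence were back-calculated from the FPKM and coverage columns. Rbpms was listed at 43.2, 38.4 and 43.4 TPM in the +/+ libraries, 31.3, 32.2 and 33.1 in Cre/+, and 19.7, 19.1 and 24.2 in Cre/Cre, so that the 3 genotypes did not overlap. Its log2 fold change in Cre/Cre against +/+ was -0.96 ± 0.098 (SE, limma, Benjamini-Hochberg adjusted p = 0.000581). It was -0.36 in Cre/+ against +/+ (limma, adjusted p = 0.355) and -0.60 in Cre/Cre against Cre/+ (adjusted p = 0.0567). The reads were aligned to mm10, which lacks the inserted cassette, and the effect of this on the Rbpms values was not tested. The library Cre/Cre 1 stood apart: the ribosomal RNA gene Rn45s took 9.21% of its TPM against 0.0827% to 0.336% in the other 8 libraries, and its median gene stood at 0.917 of the typical level. The main results below are therefore also given after scaling every library with the median over genes of the ratio to the gene's geometric mean in all libraries. Xist was at 2.08 to 3.16 TPM in Cre/+ 3, Cre/Cre 1 and Cre/Cre 3 and at 516 to 585 TPM in the other libraries, so that the sexes were not balanced over the genotypes. Summed markers of lens reached 900 TPM in Cre/Cre 2 and 10.3 to 199 TPM in the others.

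In wild-type retina Nefl was the most abundant of the 10 genes, followed by Thy1 and Uchl1. The levels are in TPM, which are per transcript length. Nefl stood at 558 ± 14.4 TPM (SD, n = 3), Thy1 at 343 ± 1.19, Uchl1 at 326 ± 26.6, Sncg at 275 ± 15.3 and Nefm at 269 ± 25.0. Lower levels were found for Tubb3 (163 ± 6.38), Stmn2 (111 ± 1.97), Nefh (104 ± 5.78), Gap43 (79.0 ± 5.68) and Slc17a6 (62.5 ± 5.95). Neighbours in this order whose libraries overlapped were Thy1 and Uchl1, Sncg and Nefm, and Stmn2 and Nefh. The mean of Nefl over the 9 libraries was above that of 98.7% of the tested genes, and the mean of Slc17a6, the lowest, was above 74.5%.

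**Figure D1:**
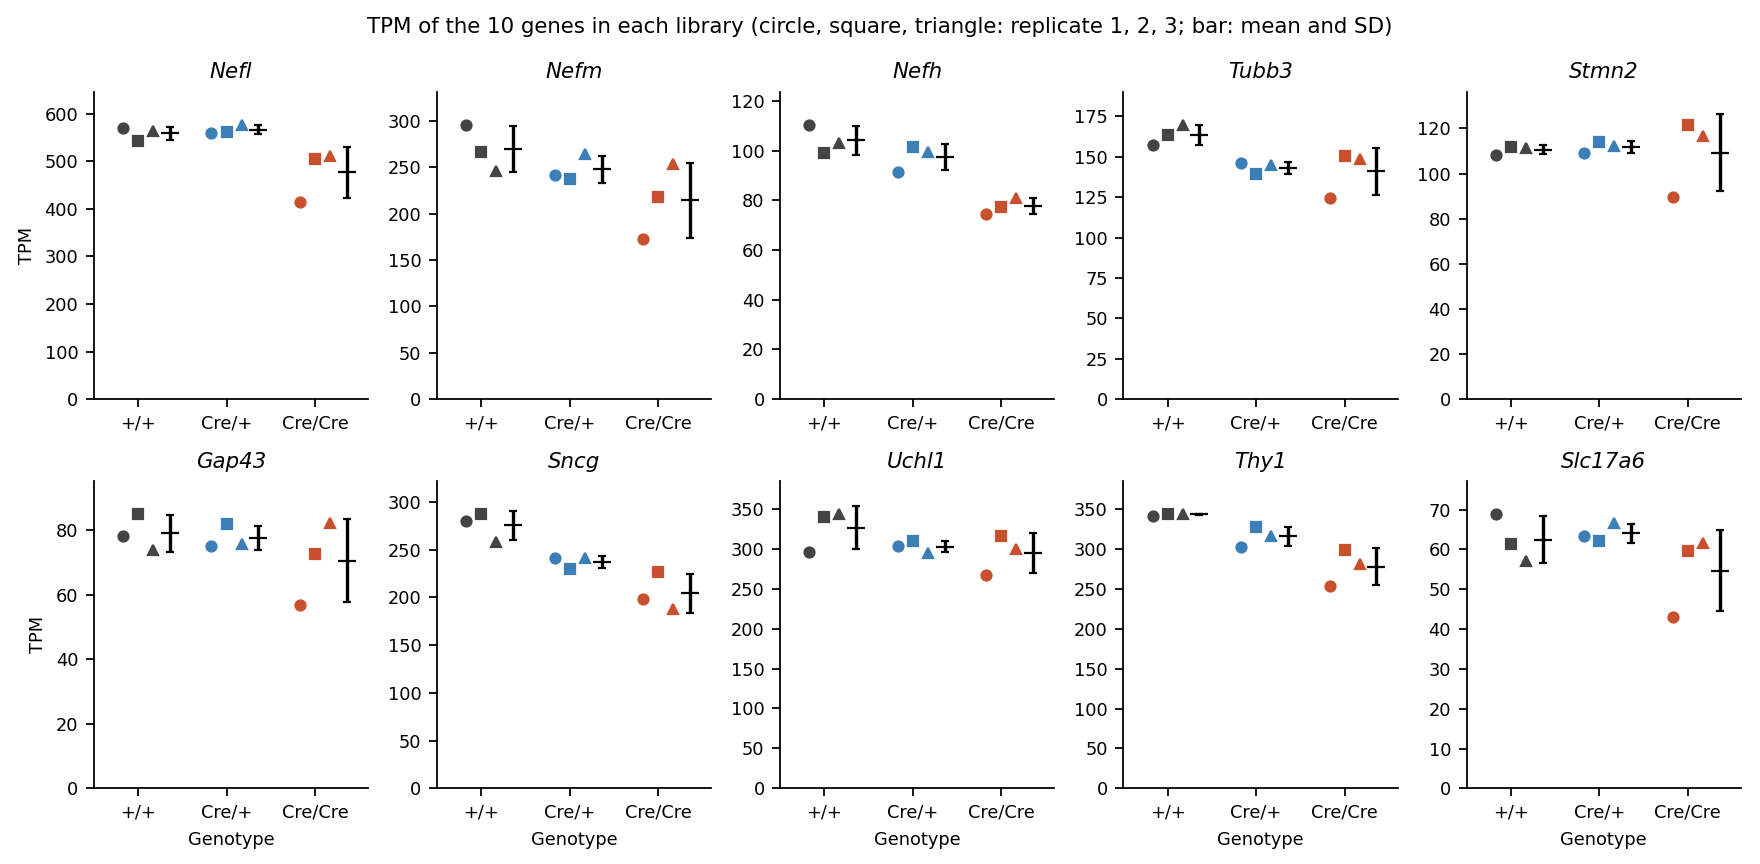
TPM (vertical axes, from 0) of the 10 genes in each library by genotype; circles, squares and triangles are replicates 1, 2 and 3, and bars give the mean and SD of 3 libraries. The Cre/Cre points of Nefh lie between 74.5 and 81.0 TPM, below all +/+ points, whereas the Cre/Cre points of Stmn2 lie on both sides of the +/+ points.

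With both alleles carrying the knock-in, the means of all 10 genes were lower than in +/+, by amounts that ran from 1.11% for Stmn2 to 25.8% for Sncg and 25.5% for Nefh, yet no member passed an adjusted p of 0.05. Among all tested genes 0.00658% passed, which was Rbpms alone. A log2 fold change below 0 was found in TPM for 8772 of the 15198 tested genes. After median-ratio scaling it was found for 9 of the 10 genes, with Stmn2 at 0.00, and for 7447 of all tested genes. Without Cre/Cre 1 it was again 9 of the 10, and the share of all tested genes was not computed for that setting. The summed TPM of the 10 genes was 2306.5, 2300.4 and 2269.6 in the +/+ libraries, 2132.6, 2164.0 and 2192.2 in Cre/+, and 1694.6, 2045.2 and 2023.2 in Cre/Cre. No library of one genotype overlapped with another genotype in this sum, and the Cre/Cre mean was 83.8% of the +/+ mean (85.2% after median-ratio scaling, 88.7% without Cre/Cre 1). The median log2 fold change of the 10 genes was -0.22, against -0.02 over all tested genes; after median-ratio scaling the values were -0.20 and 0.00, and without Cre/Cre 1 they were -0.13 and 0.02. An unadjusted p under 0.05 with a lower level was found for 6 of the 10 genes (limma). These were Nefl, Nefm, Nefh, Tubb3, Sncg and Thy1, while 5.39% of all tested genes met this limit. Without Cre/Cre 1 the count was 5 of 10, and the share of all genes at this limit was not computed there. Every Cre/Cre library lay below every +/+ library for 5 genes (Nefl, Nefh, Tubb3, Sncg and Thy1), as it did for 8.05% of all genes; the same 5 genes met this after scaling, where the share of all genes was 7.18%.

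**Figure D2:**
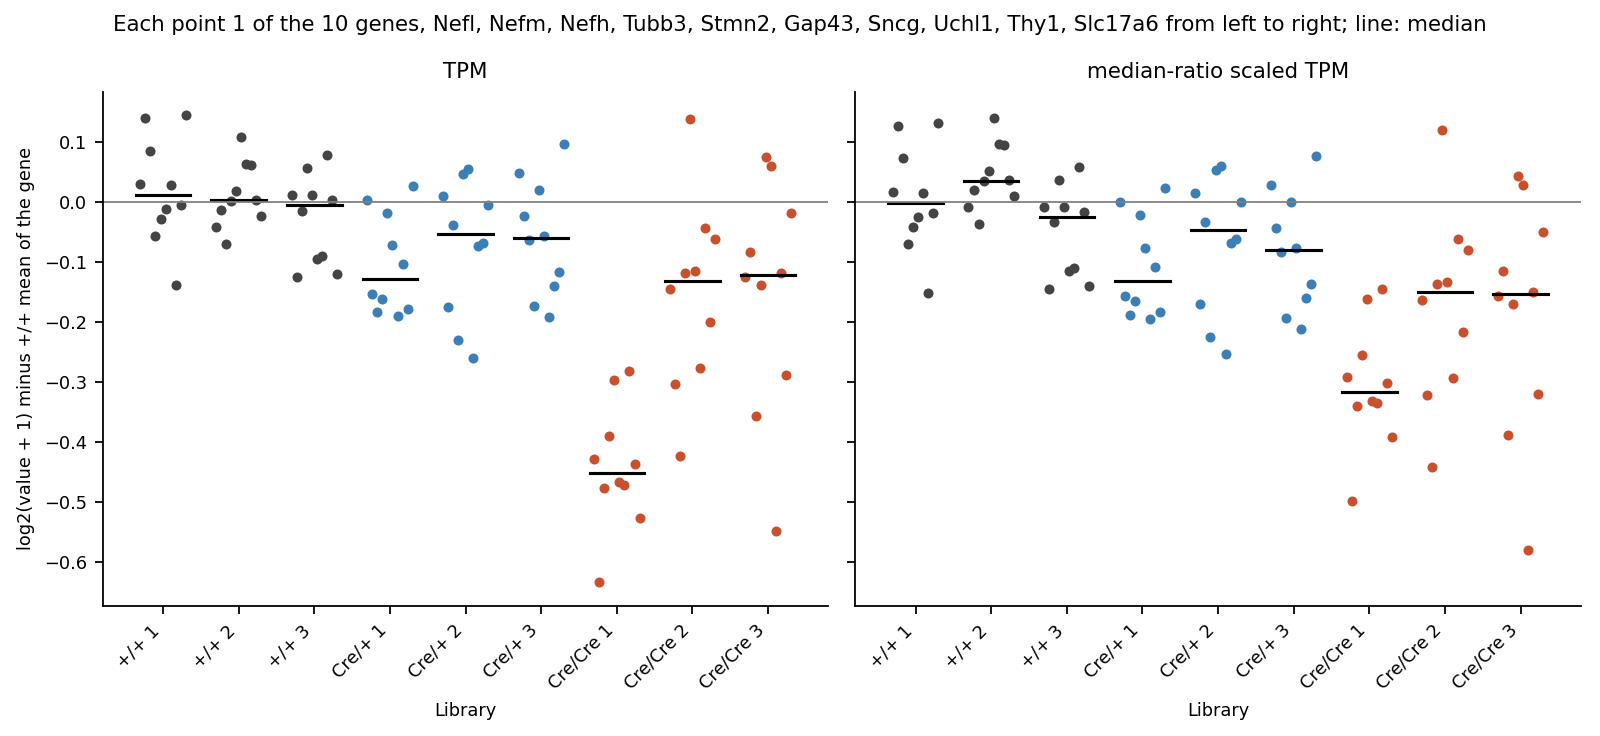
Difference of each gene from its +/+ mean on the log2(value + 1) scale (vertical axis) in each of the 9 libraries, for TPM and for TPM after median-ratio scaling; each point is 1 of the 10 genes and the line is their median. All 10 points of Cre/Cre 1 lie below 0 on both scales, with a median of -0.45 for TPM and -0.32 after scaling, and the medians of Cre/Cre 2 and Cre/Cre 3 lie between -0.12 and -0.15.

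The mean levels of the neurofilament subunits were lower in homozygous retinas. Their log2 fold changes differed in size, but with all libraries no ratio between subunits passed the adjusted limit in the slope test given below. Nefh was listed at 110, 99.0 and 103 TPM in +/+, 91.4, 101 and 99.4 in Cre/+, and 74.5, 77.3 and 81.0 in Cre/Cre. The Cre/Cre libraries of Nefh thus lay together, below every library of the other genotypes. Its log2 fold change against +/+ was -0.42 ± 0.076 (SE; limma, unadjusted p = 5.03e-05, adjusted p = 0.126), the 4th smallest p of all tested genes, and it was -0.39 after scaling (adjusted p = 0.0863) and -0.39 without Cre/Cre 1 (adjusted p = 0.249). Against Cre/+ the difference was -0.32 (adjusted p = 0.388).

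Nefl was listed at 570, 542 and 563 TPM in +/+, 560, 562 and 577 in Cre/+, and 415, 505 and 512 in Cre/Cre. Again all Cre/Cre libraries were the lowest, with Cre/Cre 1 well below the other two, while +/+ and Cre/+ overlapped. The log2 fold change in Cre/Cre was -0.23 ± 0.081 (SE; limma, adjusted p = 0.624); without Cre/Cre 1 it was -0.14, which differs from the former by over 1.5 times. Nefm was listed at 296, 266 and 246 TPM in +/+, 241, 238 and 264 in Cre/+, and 173, 217 and 253 in Cre/Cre. Its genotypes overlapped, because Cre/Cre 3 lay above the lowest +/+ library. The fold change of Nefm was -0.34 ± 0.12 (adjusted p = 0.634) with all libraries and -0.19 without Cre/Cre 1.

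Sncg and Thy1 were the members whose 3 genotypes stood apart in the order +/+, Cre/+, Cre/Cre, which 0.171% of all tested genes did; after scaling it was again these members, and 0.151% of all genes. Sncg, the synuclein used as a ganglion cell marker, was listed at 280, 287 and 258 TPM in +/+, 241, 230 and 241 in Cre/+, and 198, 227 and 188 in Cre/Cre. The lowest +/+ library was 17.3 TPM above the highest Cre/+ library, and the highest Cre/Cre library 2.67 TPM below the lowest Cre/+ library. The log2 fold change of Sncg was -0.21 ± 0.081 in Cre/+ (limma, adjusted p = 0.404) and -0.43 ± 0.081 in Cre/Cre (adjusted p = 0.133). When the 3 genotypes were fitted as a line on 0, 1 and 2 knock-in copies, Sncg had a slope of -0.22 per allele (unadjusted p = 6.89e-05, adjusted p = 0.150); no member passed in this test, and 0.00658% of all genes did, while 6 members had an unadjusted p under 0.05 and a slope below 0 (limma), as did 4.82% of all genes. Without Cre/Cre 2 alone, the library with the most lens RNA, Sncg passed the adjusted limit in Cre/Cre (log2 fold change -0.51, adjusted p = 0.0479); this was not so after scaling (adjusted p = 0.185).

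Thy1, the GPI-anchored glycoprotein whose promoter is used to label ganglion cells, was listed at 342, 344 and 344 TPM in +/+, 303, 327 and 317 in Cre/+, and 253, 299 and 281 in Cre/Cre. The +/+ libraries lay within 2.17 TPM of each other, and Cre/+ came between them and Cre/Cre. After scaling, Thy1 ran more widely in +/+, from 336 to 349. Its log2 fold change in Cre/Cre was -0.31 ± 0.075 (limma, unadjusted p = 0.000856, adjusted p = 0.450), or -0.28 after scaling and -0.24 without Cre/Cre 1. The difference in Cre/+ was -0.12 ± 0.075 (adjusted p = 0.557).

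Tubb3 was listed at 157, 163 and 170 TPM in +/+, 146, 139 and 145 in Cre/+, and 124, 150 and 148 in Cre/Cre. Both knock-in genotypes lay below +/+ and overlapped each other, so that no order by the number of alleles was seen between them. The log2 fold change was -0.19 ± 0.082 in Cre/+ (limma, adjusted p = 0.432) and -0.22 ± 0.082 in Cre/Cre (adjusted p = 0.655), and the latter was -0.13 without Cre/Cre 1. Stmn2, the other microtubule gene, was listed at 108, 112 and 111 TPM in +/+, 109, 114 and 112 in Cre/+, and 89.8, 122 and 116 in Cre/Cre. Cre/Cre 1 was the lowest and Cre/Cre 2 the highest of all 9 libraries. Its log2 fold change in Cre/Cre was -0.03 (95% confidence interval -0.23 to 0.18; limma, adjusted p = 0.985) with all libraries, turned to 0.00 after scaling, to 0.06 with Xist as a covariate and to 0.11 without Cre/Cre 1.

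Gap43, Uchl1 and Slc17a6 overlapped between +/+ and each knock-in genotype in TPM. Gap43 was listed at 78.2, 85.0 and 73.8 TPM in +/+ and at 56.8, 72.7 and 82.2 in Cre/Cre, with Cre/+ at 74.9 to 81.9. Uchl1, a deubiquitinating enzyme abundant in neurons, was listed at 296, 340 and 344 TPM in +/+ and at 268, 316 and 300 in Cre/Cre, with Cre/+ at 295 to 309. Slc17a6, which loads glutamate into synaptic vesicles, was listed at 68.9, 61.2 and 57.2 TPM in +/+ and at 42.9, 59.6 and 61.5 in Cre/Cre, with Cre/+ at 62.0 to 66.6, 0.56 TPM clear of Cre/Cre. In TPM, Cre/Cre 1 was the lowest of the 9 libraries for each of them. The log2 fold changes in Cre/Cre were -0.17 for Gap43, -0.15 for Uchl1 and -0.20 for Slc17a6, with adjusted p values from 0.787 to 0.829 (limma). Without Cre/Cre 1 they were -0.03, -0.08 and -0.04.

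**Figure D3:**
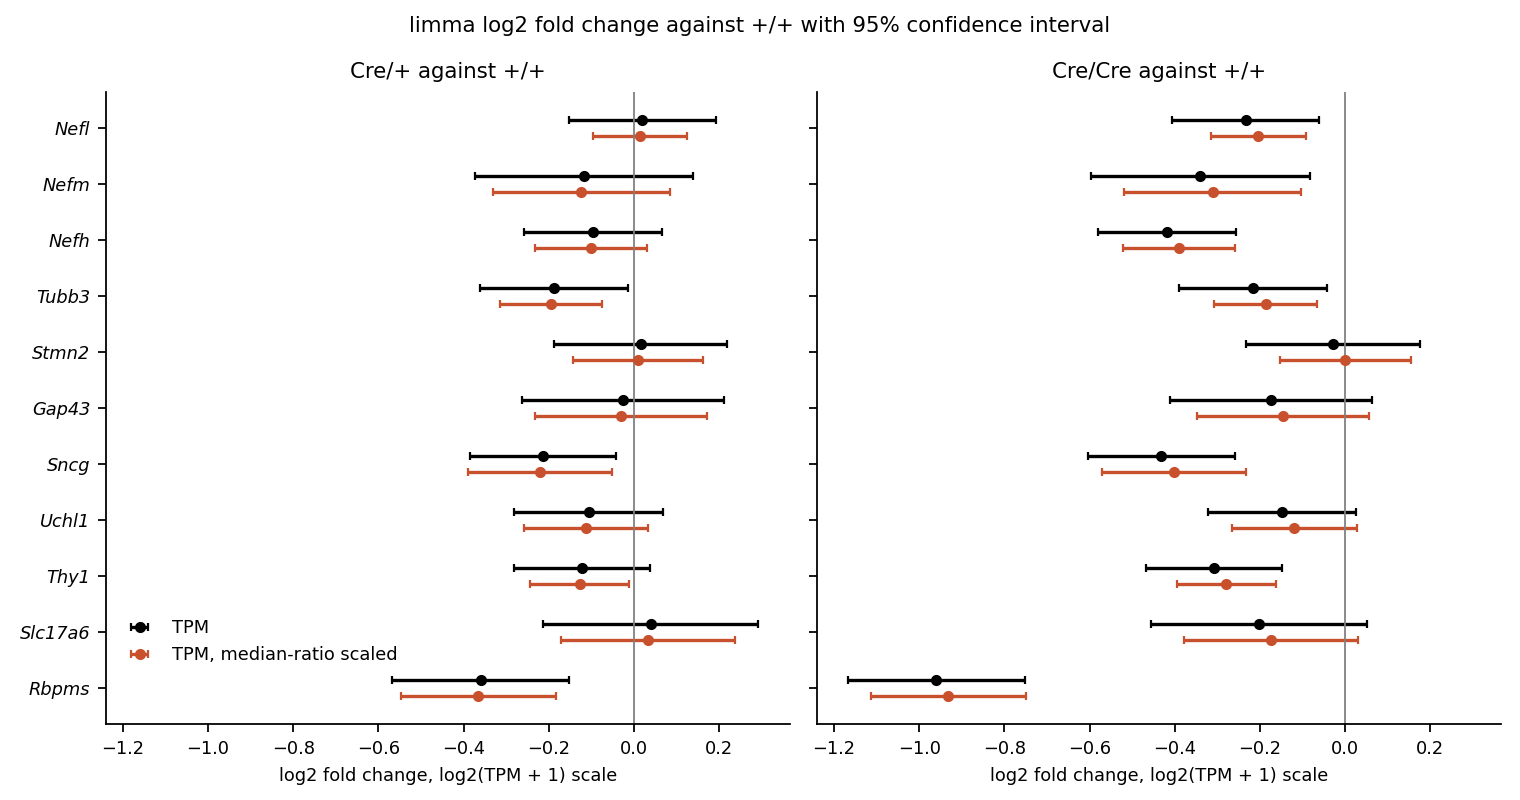
log2 fold change against +/+ on the log2(TPM + 1) scale (horizontal axis) with 95% confidence intervals from limma, for Cre/+ and Cre/Cre, with TPM in black and median-ratio scaled TPM in orange. In Cre/Cre the intervals of Nefl, Nefm, Nefh, Tubb3, Sncg and Thy1 lie below 0, and those of Stmn2, Gap43, Uchl1 and Slc17a6 include 0; the interval of Rbpms, at the bottom, runs from -1.17 to -0.75 with TPM.

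With the knock-in on a single allele the differences were smaller. The summed TPM of the 10 genes was 94.4% of the +/+ mean, and the median log2 fold change was -0.10 against 0.00 over all tested genes. Values below 0 were obtained for 7 of the 10 genes and for 7533 of the 15198 tested genes. Nefl, Stmn2 and Slc17a6 lay at 0.02 to 0.04. No member passed the adjusted limit of 0.05, and 0.00658% of all genes did. An unadjusted p under 0.05 with a lower level was found for Tubb3 and Sncg, and for 5.82% of all genes. Every Cre/+ library lay below every +/+ library for Tubb3, Sncg and Thy1, where 10.3% of all genes showed this; after scaling it held for these 3 genes again, and for 11.2% of all genes. Between the knock-in genotypes, Cre/Cre against Cre/+, no member passed the adjusted limit either, which 0.0132% of all genes did, while 4 members and 4.2% of all genes had an unadjusted p under 0.05 with a lower level (limma), and the median over the 10 genes was -0.20 (-0.17 after scaling, -0.08 without Cre/Cre 1 and -0.10 with both).

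Ratios between members within a library do not depend on how that library is scaled, and 7 of them were tested by the slope of the log2 ratio on the number of knock-in alleles (two-sided exact permutation test over 1680 arrangements, Benjamini-Hochberg adjusted over the 7). None passed 0.05 after adjustment. The ratio of Nefh to Nefl was 0.194, 0.183 and 0.183 in +/+, 0.163, 0.180 and 0.172 in Cre/+, and 0.180, 0.153 and 0.158 in Cre/Cre. The +/+ libraries were the highest and did not overlap with the others. The slope was -0.09 per allele (exact permutation p = 0.0262, adjusted p = 0.0917), and the same adjusted p was obtained for Sncg to Uchl1, with a slope of -0.14 (exact permutation p = 0.0202). Sncg to Uchl1 ran from 0.751 to 0.948 in +/+ and from 0.626 to 0.740 in Cre/Cre. Without Cre/Cre 1 the Nefh to Nefl slope passed (-0.13, adjusted p = 0.025), and without +/+ replicate 3 the Sncg to Uchl1 slope did (-0.18, adjusted p = 0.025). The other 5 ratios had adjusted p values from 0.194 to 0.519 by the same exact test. Nefl to Nefm was 2.08 ± 0.18 (SD, n = 3) in +/+ and 2.25 ± 0.20 in Cre/Cre, and the summed neurofilaments stood at 5.71 ± 0.45 times Tubb3 in +/+ and 5.45 ± 0.22 times in Cre/Cre. For a single pair of genotypes the smallest p that such a test can give is 0.1.

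**Figure D4:**
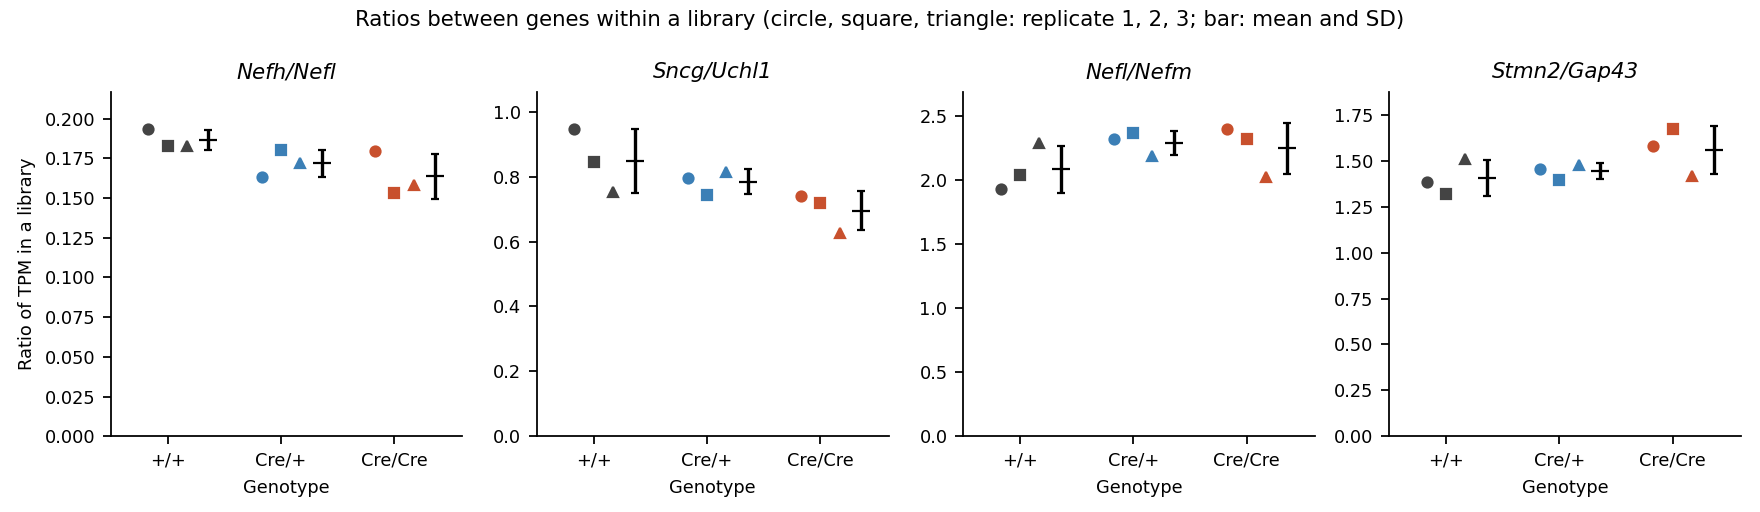
Ratio of the TPM of a pair of genes within a library (vertical axes, from 0) by genotype, for 4 of the 7 ratios; symbols are replicates 1, 2 and 3, and bars give the mean and SD of 3 libraries. For Nefh to Nefl the +/+ points lie at 0.183 to 0.194 and the other points at 0.153 to 0.180.

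A list of 24 partner genes of the axonal filaments and microtubules included 12 with an unadjusted p under 0.05 and a lower level in Cre/Cre (limma). The share of all genes was 5.39%. After scaling the count was 10 of the 24, and 717 of the 15198 tested genes. None of the 24 had such a p with a higher level, and none passed the adjusted limit. The median log2 fold change of the list was -0.16 (-0.13 after scaling). The α-tubulins Tuba1a and Tuba1b, its most abundant genes, stood at -0.18 each (limma, adjusted p = 0.671 and 0.655), and the microtubule-associated Map1b at -0.03. Tubb2b, a β-tubulin, was listed at 64.6 to 67.1 TPM in +/+, 54.7 to 58.1 in Cre/+ and 47.0 to 57.4 in Cre/Cre, so that +/+ did not overlap with the knock-in genotypes. Its log2 fold changes were -0.22 in Cre/+ and -0.33 in Cre/Cre (limma, adjusted p = 0.404 and 0.450). Marcksl1, a regulator of the submembrane actin skeleton, had values of -0.32 and -0.26 (adjusted p = 0.377 and 0.655).

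Of 21 genes of axonal transport, initial segment and axonal membrane, 2 had an unadjusted p under 0.05 with a lower level in Cre/Cre, where the share of all genes was 5.39%, and the median was -0.03. The kinesin light chain Klc1 stood at -0.09, the kinesin Kif1b at 0.04 and the dynactin subunit Dctn1 at -0.11, with adjusted p values of 0.827 or more (limma). Of the relatives of the members that are expressed more widely in the retina, Sncb (β-synuclein) stood at -0.18 in Cre/+ and -0.19 in Cre/Cre (limma, adjusted p = 0.409 and 0.647). Among the vesicular glutamate transporters, Slc17a7, which serves photoreceptors and bipolar cells, stood at -0.12 and Slc17a8 at 0.01 in Cre/Cre, and the ubiquitin hydrolases Uchl3 and Uchl5 at 0.09 and -0.02.

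Of 12 ganglion cell genes other than the members and Rbpms, 6 had an unadjusted p under 0.05 with a lower level in Cre/Cre (limma). The share of all genes was 5.39%. After scaling the count was 5 of these 12, and 717 of the 15198 tested genes. None of the 12 passed the adjusted limit, and their median was -0.21 (-0.18 after scaling). The nicotinic receptor subunit Chrna6 stood at -0.23, the neuritin gene Nrn1 at -0.24 and the junctional adhesion gene Jam2 at -0.02. In Cre/+ the median of these 12 genes was 0.02, on the other side of 0 from the -0.10 of the members. Markers of other retinal cells gave medians in Cre/Cre of -0.05 for 5 amacrine, -0.11 for 4 horizontal and -0.09 for 4 bipolar genes. After scaling these medians were -0.03, -0.09 and -0.06. The medians were -0.08 for 4 rod, -0.07 for 4 cone and -0.11 for 4 Müller glia genes, and -0.06, -0.04 and -0.08 after scaling. The summed TPM in Cre/Cre was 97.2% of the +/+ mean for amacrine, 92.1% for horizontal and 92.6% for bipolar markers. It was 93.1% for rod, 102.5% for cone and 92.3% for Müller glia markers, and 89.3% for the 12 ganglion cell genes. Within the cone markers, Arr3 stood at 123.0% and Opn1sw, Opn1mw and Gnat2 at 88.4% to 96.4%. Of 5 oligodendrocyte genes, 3 passed the filter on low values, with a median of 0.08. Of the 2 tested astrocyte genes both were below 0, with a median of -0.18, and the summed astrocyte markers ran from 43.7 to 62.3 TPM in +/+ and from 41.0 to 51.4 TPM in Cre/Cre. Microglia, endothelial and pigment epithelial medians were 0.04, 0.08 and 0.21. The 3 blood genes summed to 9.99 to 59.0 TPM in +/+ and 94.0 to 280 TPM in Cre/Cre, and the lens genes to 123 to 175 and 63.7 to 900 TPM. The part of cell composition, RNA quality and sex in the lower values of the 10 genes was not tested beyond the settings given with the processing.

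Over the 9 libraries, with each library centred on its median, all 45 pairs of the 10 genes were positively correlated, with a median Pearson r of 0.58. The highest values were those of Nefh with Thy1 (0.90) and Nefm with Slc17a6 (0.89), and the lowest that of Stmn2 with Sncg (0.01). Of 12362 other genes with a mean of at least 5 TPM, the 8 whose course was most like the mean of the members were Cend1 (r = 0.95), Fgf1 (0.94), Prss23 (0.94), Map6 (0.94), Scd2 (0.94), Gng3 (0.93), Zfp991 (0.93) and Emb (0.93). Rbpms was at 0.86. The median over all these genes was 0.09 and the upper 1% began at 0.84. These values describe 9 libraries in which genotype, sex and library quality vary together, and genes are not independent of each other. In Cre/Cre 1 all 10 genes lay below their +/+ mean, and correlations without this library were not computed. The share of positive pairs among all genes was not computed either.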

How the data were processed

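Gene expression in 9 libraries of whole retina (3 per genotype) was taken from the gene tables that the authors deposited. Per the labels and the study's methods, polyA-selected, strand-specific reads were trimmed with Trimmomatic, checked with FastQC, aligned to mm10 with HISAT2, sorted with SAMtools and quantified with StringTie; versions, the gene annotation and the strand setting are not given in the sources used here. The authors' deposited values are TPM, FPKM and coverage (signal) per gene, without read counts, so that the stated DESeq2 test was not repeated. TPM were summed by gene name and tested on log2(TPM + 1) with limma 3.58.1 (R 4.3.3; trend and robust prior) in 1 fit over the 9 libraries, for genes whose mean TPM reached 1. P-values were Benjamini-Hochberg adjusted over all 15198 genes. The test was checked on simulated data, but the settings and outcome of that check are not given here. It is therefore no evidence on how the test performs for changes of the size reported. Fold changes on this scale understate those of low genes. Each library was a pair of retinas; separate mice were not stated, so that p-values measure the spread between these samples, and no batch was labelled. Aligned gigabases are estimates and the number of reads is unknown, so no counting interval is given. Coverage and FPKM entered the estimate of depth, and FPKM an alternative.

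The 10 genes and all other lists were chosen with earlier results of these data known. Genes named are the 10 members, Rbpms, the members' family relatives, in 3 further lists the 3 with the highest mean TPM and any with an unadjusted p under 0.05 in the same direction in both comparisons with +/+ or an adjusted p of at most 0.05, markers whose values stand beside a result, and the 8 genes of at least 5 TPM whose course over the libraries was most like the members' mean; 1 gene that this rule names is not reported here. Promoters came from RefSeq and transcripts from GENCODE vM21. Alternatives were another pseudocount (0.1), no filter, FPKM, median-ratio scaling, the replicate number as block, Xist as covariate, only the genotypes compared, limma without its robust prior and each library left out; combinations with median-ratio scaling were chosen after seeing the data.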

Additional observations from a re-analysis of the deposited data

How the results depend on the processing

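Of 730 recomputed log2 fold changes and ratio slopes, 727 kept their side of the adjusted limit of 0.05. None of these results had passed it in the main setting, so that keeping a side says nothing of the size of a value. With a library left out, the Cre/Cre value against +/+ ran from -0.29 to -0.03 for Gap43 and from -0.11 to 0.11 for Stmn2. Of 183 recomputed counts, medians and sums, 179 stayed within their margins. The count of members past the limit in Cre/Cre against +/+ ran from 0 to 1 with a library left out, the 1 being Sncg without Cre/Cre 2, and that of the ratios also from 0 to 1. The median log2 fold change of the 10 genes in Cre/+ ran from -0.105 to -0.051, the latter without +/+ 1, in Cre/Cre from -0.29 to -0.13, and in Cre/Cre against Cre/+ from -0.24 to -0.08, the last without Cre/Cre 1; the cause was not tested. With Xist as covariate the Cre/Cre values were -0.43 for Nefh, -0.37 for Sncg and -0.25 for Thy1, with adjusted p from 0.420 to 0.876. The replicate numbers are only names shared between genotypes: correlations of deviations between libraries of the same number ran from -0.12 to 0.13, and 3 of 9 libraries correlated best with a library of their own number. With the replicate block no call on the 10 genes changed, and Nefh and Sncg had adjusted p values of 0.409 in Cre/Cre (0.375 after median-ratio scaling); 0 members passed. All tests rest on 3 libraries per genotype, and without read counts the depth behind single genes cannot be given.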
